A study of Arabidopsis thaliana with 12 samples.

Results

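The 35 genes described here encode enzymes and regulators of the Calvin cycle (23 genes) and of photorespiration (12 genes). They were chosen by function, as nuclear genes for the steps from the Rubisco small subunits to CP12 and from phosphoglycolate phosphatase to glycerate kinase, and they make up 35 of the 37885 genes counted. The study asked how the group VII ethylene response factors (ERFVIIs) and their degradation shape the seedling transcriptome, and compared poly(A)-selected RNA of whole Arabidopsis thaliana seedlings by RNAseq in 3 genotypes with 4 replicate libraries each. All seedlings were untreated, 7 days old and grown in continuous light on MS agar without sucrose. Col-0 was the wild type. The genotype labelled prt6-1 carries a mutant allele of PRT6, an E3 ligase of the N-degron pathway that marks ERFVII proteins for degradation. The genotype labelled prt6-1erfvii combines prt6-1 with T-DNA alleles of all 5 ERFVII genes (HRE1, HRE2, RAP2.2, RAP2.3 and RAP2.12), which are carried in all cells of the plant from germination on. No genotype with the ERFVII alleles alone was among these libraries.

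The Calvin cycle fixes CO2 in the chloroplast. Rubisco, made of a large subunit encoded in the plastid and small subunits encoded by the nuclear RBCS genes, carboxylates ribulose bisphosphate, and the products are reduced by phosphoglycerate kinase and glyceraldehyde phosphate dehydrogenase and then rearranged by aldolase, transketolase and the bisphosphatases to regenerate the acceptor. Rubisco also reacts with oxygen, which gives phosphoglycolate. Photorespiration returns its carbon to the cycle through 3 compartments: phosphoglycolate phosphatase works in the chloroplast, glycolate oxidase and the aminotransferases in the peroxisome, glycine decarboxylase and serine hydroxymethyltransferase in the mitochondrion, and glycerate kinase again in the chloroplast.

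Between 23156637 and 30582461 counts on genes were available per library. The labels were checked against the mutated genes. PRT6 was at 62.3 ± 4.14 CPM (SD, n = 4; CPM are counts relative to library totals scaled by TMM factors over the 12 libraries) in Col-0, at 64.1 ± 14.3 CPM in the prt6-1-labelled libraries and at 9.07 ± 1.28 CPM in prt6-1erfvii, so that PRT6 transcripts were not lower in the prt6-1-labelled libraries and directions drawn from them rest on the label. RAP2.3 was at 85.8, 68.7 and 0.671 CPM in the same order, and HRE1 had no count in prt6-1erfvii. RAP2.12 and RAP2.2 transcripts were at 51.3 and 58.5 CPM in prt6-1erfvii, against 96.01 and 104.6 CPM in Col-0, and were thus reduced but present. Of PRT6 and the 5 ERFVII genes, 1 was higher in the prt6-1-labelled libraries than in Col-0 at an adjusted p under 0.05 (edgeR). The log2 fold changes of these 6 genes ran from -0.32 to 1.94 in that comparison. The level of a transcript does not tell whether its allele is functional. For these genotypes the paper reports higher levels in prt6 than in Col-0 for the majority of a core set of hypoxia-responsive transcripts, which were not examined here. Replicate 4 of the prt6-1-labelled libraries stood apart from its replicates (chi-square per degree of freedom from 12.02 to 15.1 against its 3 replicates, and from 5.12 to 5.74 among these), and replicates 1 and 3 of prt6-1erfvii differed by 11.4. The 3 comparisons share libraries, so their results are not independent of each other. The labels call the replicates biological without saying whether they were sown apart. The paper states for its experiments in general that replicates were independent and came from different starting material. The p-values set the difference between genotypes against the spread between these libraries.

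Not every member could be counted. PGLP1 (AT5G36700, chromosome 5, 14421182-14424610, - strand, TAIR10.1), the phosphoglycolate phosphatase of photorespiration, had between 3 and 12 counts per library and was tested in no comparison. Its coding sequence of 1089 bases had 0 mismatches to that of AT5G36790, and 100% of the windows of 75 bases in its transcripts, the length of a read, occurred elsewhere in the genome, while only uniquely mapped reads were counted. The first step of photorespiration was therefore not measured. The other 11 photorespiration genes and all 23 Calvin cycle genes were tested in each comparison. Among the Rubisco small subunits, RBCS1B, RBCS2B and RBCS3B lie side by side on chromosome 5 and are between 96.7% and 97.25% identical in coding sequence, and 9.33%, 5.33% and 14.1% of their windows of 75 bases were repeated. Their last 75 coding bases are printed to show how little separates them. Capitals mark the 2 positions at which they are not all the same (RefSeq, TAIR10.1, chromosome 5, - strand, 5′ to 3′):
RBCS1B: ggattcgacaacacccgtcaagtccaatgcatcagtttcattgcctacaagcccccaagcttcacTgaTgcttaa
RBCS2B: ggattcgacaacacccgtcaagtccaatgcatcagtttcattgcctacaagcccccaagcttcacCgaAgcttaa
RBCS3B: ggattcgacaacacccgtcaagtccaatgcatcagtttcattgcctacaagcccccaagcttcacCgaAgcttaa
RBCS2B and RBCS3B were the same over this stretch, so a read confined to it could not be assigned to either by its own bases. Reads came in pairs, and a mate outside the stretch could place such a read, which the windows do not take into account. RBCS1A, on chromosome 1, was about as distant from each of them (90.42% to 90.61% identical) and had 0% of repeated windows.

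The sequences upstream of the members the results turn on are shown next, for the photorespiration pairs GLDP1 with GLDP2 and GOX1 with GOX2, in which 1 copy was called and not the other, and for AGT1, GGT1 and CP12-3, which were called in both comparisons with prt6-1erfvii. The pairs PGK1 with PGK2, FBA1 with FBA2 and TKL1 with TKL2 of the Calvin cycle, also with 1 copy called between the prt6-1-labelled libraries and prt6-1erfvii, are not printed. RBCS1B was also called in both comparisons with prt6-1erfvii and is not printed either. Each sequence shown is the 250 bases before the annotated start, from RefSeq's TAIR10.1 sequence. Capitals mark matches, on either strand, to the G-box CACGTG, the I-box GATAAG or the CCAATC motif bound by GLK factors, which were searched together with the GCC box GCCGCC, the evening element AAAATATCT and the hypoxia-responsive promoter element. The windows are chr2:11114292-11114541 (GLDP2), chr4:15931423-15931672 (GLDP1) and chr2:5541480-5541729 (AGT1), all on the - strand, chr1:8272022-8272271 (GGT1, - strand), and chr3:4818001-4818250 (GOX2), chr3:4821141-4821390 (GOX1) and chr1:28727956-28728205 (CP12-3), all on the + strand:
GLDP2: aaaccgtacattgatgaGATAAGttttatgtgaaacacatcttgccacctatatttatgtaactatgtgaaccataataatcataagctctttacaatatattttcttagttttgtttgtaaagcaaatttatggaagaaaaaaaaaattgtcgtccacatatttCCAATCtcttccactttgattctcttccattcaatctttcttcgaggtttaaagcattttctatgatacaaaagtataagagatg
GLDP1: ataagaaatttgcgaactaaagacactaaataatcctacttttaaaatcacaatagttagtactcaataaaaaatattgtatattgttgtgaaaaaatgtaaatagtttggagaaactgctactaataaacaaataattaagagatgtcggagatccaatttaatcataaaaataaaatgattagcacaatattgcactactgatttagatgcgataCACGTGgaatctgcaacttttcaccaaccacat
GOX2: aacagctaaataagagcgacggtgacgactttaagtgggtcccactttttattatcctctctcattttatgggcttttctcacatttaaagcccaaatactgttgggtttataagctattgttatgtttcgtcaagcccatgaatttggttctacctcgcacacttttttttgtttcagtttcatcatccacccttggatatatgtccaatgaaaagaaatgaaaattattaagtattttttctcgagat
GOX1: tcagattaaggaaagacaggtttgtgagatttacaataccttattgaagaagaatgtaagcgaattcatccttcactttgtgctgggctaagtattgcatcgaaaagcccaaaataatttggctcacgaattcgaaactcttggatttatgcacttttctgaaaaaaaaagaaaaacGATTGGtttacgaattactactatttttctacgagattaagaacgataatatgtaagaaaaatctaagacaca
AGT1: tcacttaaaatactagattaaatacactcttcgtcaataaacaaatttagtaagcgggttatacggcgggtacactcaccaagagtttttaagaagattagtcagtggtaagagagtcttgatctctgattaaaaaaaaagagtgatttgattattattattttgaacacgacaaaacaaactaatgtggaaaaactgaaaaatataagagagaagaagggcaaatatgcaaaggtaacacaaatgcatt
GGT1: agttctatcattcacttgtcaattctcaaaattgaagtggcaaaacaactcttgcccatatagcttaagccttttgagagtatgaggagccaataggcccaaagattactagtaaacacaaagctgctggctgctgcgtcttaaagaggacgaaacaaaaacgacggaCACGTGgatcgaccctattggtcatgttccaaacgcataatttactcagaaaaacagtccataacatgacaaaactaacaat
CP12-3: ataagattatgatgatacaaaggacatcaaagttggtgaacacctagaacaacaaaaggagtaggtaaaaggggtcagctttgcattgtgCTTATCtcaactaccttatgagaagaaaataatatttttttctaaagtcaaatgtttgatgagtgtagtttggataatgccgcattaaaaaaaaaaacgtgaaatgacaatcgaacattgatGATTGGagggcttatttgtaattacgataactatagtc
The G-box occurred in the windows of GGT1 and GLDP1, and both the I-box and the CCAATC motif in those of GLDP2 and CP12-3. GOX1 had the CCAATC motif on the opposite strand, and GOX2 and AGT1 had none of the motifs searched. Over the members, the G-box was in 4 of 23 Calvin cycle windows (17.4%) and in 2 of 12 photorespiration windows (16.7%), against 6.49% of the windows of 27443 protein-coding genes. The I-box was in 5 Calvin cycle windows (21.7%) and 1 photorespiration window (8.33%), against 12.3% of all. The CCAATC motif was in 3 and in 2 (13% and 16.7%), against 10.2% of all. The GCC box, the evening element and the hypoxia-responsive promoter element were in 0 member windows, against 1.87%, 2.36% and 0.0109% of all. The last was searched as an exact match to its consensus, which only 3 of the 27443 windows held. Its absence from the member windows was thus near certain beforehand, and no conclusion is drawn from it. The paper searched longer promoters and gene regions with a motif tool, and reports copies in many genes that differ between prt6 and prt6 erfVII. The windows of GLYK and TKL2 are not printed because 237 and 223 of their 250 bases lie in the neighbouring gene. The G-box of TKL2, which is among the 4 counted for the Calvin cycle, lies in that part. Further member windows that are not printed overlap a neighbouring gene in part, and that of GAPA1 does so over all 250 bases. A match is a description of the letters and not a binding site.

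Summed over their genes, photorespiration transcripts took a larger share of the libraries of prt6-1erfvii, while the shares of Calvin cycle transcripts overlapped. The 12 photorespiration genes together held 1.43%, 1.40%, 1.44% and 1.44% of the counts on genes in the prt6-1erfvii replicates. In Col-0 they held between 1.27% and 1.34%, and in the prt6-1-labelled libraries between 1.26% and 1.31%, so that all prt6-1erfvii libraries were above all others. The 23 Calvin cycle genes held between 5.10% and 5.26% in Col-0, between 4.81% and 5.31% in the prt6-1-labelled libraries and between 4.97% and 5.24% in prt6-1erfvii, and the 3 ranges overlapped.

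**Figure D1:**
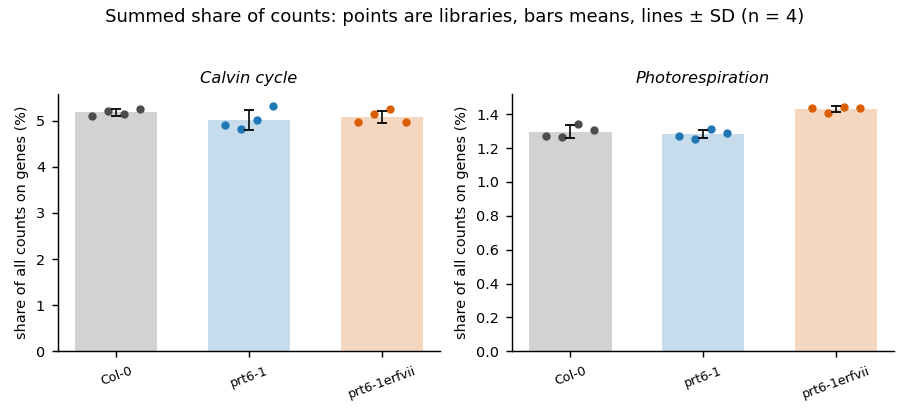
Share of all counts on genes (%) held by the 23 Calvin cycle genes (left) and the 12 photorespiration genes (right), by genotype, with points for libraries, bars for means and lines for ± SD (n = 4). The prt6-1erfvii libraries lie between 1.40% and 1.44% for photorespiration, above all others, while the Calvin cycle ranges overlap.

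The first comparison, of the prt6-1-labelled libraries with prt6-1erfvii, asks what the ERFVII alleles change where both genotypes carry a prt6 mutation by their labels. PRT6 transcripts themselves differed between these libraries (64.1 and 9.07 CPM), so that the ERFVII alleles and this difference cannot be told apart here. Of the 11 photorespiration genes tested, 5 were lower in the prt6-1-labelled libraries and 0 were higher, which left 6 not called. The 5 were GOX2, GGT1, GLDP2, AGT1 and GLYK, and they were from 24.7% to 61.2% higher in prt6-1erfvii. Over all 20857 genes tested, 31.3% were called, 14.7% as higher and 16.6% as lower in the prt6-1-labelled libraries. By compartment, 3 of 5 peroxisomal genes, 1 of 5 mitochondrial genes and the 1 chloroplast gene tested were lower. The median log2 fold change (the prt6-1-labelled libraries minus prt6-1erfvii) of the 11 genes was -0.14, with 10 of them below 0, against -0.00088 over all genes tested. In 6 of the 11 genes the libraries of the 2 genotypes did not overlap, against 31.2% of all genes tested.

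GLYK (AT1G80380, chromosome 1, 30217116-30220595, + strand) encodes glycerate kinase, the last enzyme of photorespiration, which returns glycerate to the Calvin cycle as phosphoglycerate. Its level was 346, 369, 377 and 362 CPM in replicates 1 to 4 of prt6-1erfvii. It was 206, 222, 238 and 243 CPM in the prt6-1-labelled libraries, and 234, 228, 248 and 233 CPM in Col-0. The lowest prt6-1erfvii library was thus above every library of the other genotypes, which overlapped with each other. The log2 fold change was -0.69 ± 0.06 (SE; adjusted p = 1.33e-07, quasi-likelihood test of edgeR, Benjamini-Hochberg adjusted over all genes), or 61.2% more in prt6-1erfvii.

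AGT1 (AT2G13360, chromosome 2, 5538740-5541479, - strand), the serine:glyoxylate aminotransferase of the peroxisome, makes hydroxypyruvate from serine. It was at 1681, 1661, 1830 and 1765 CPM in prt6-1erfvii. It was at 1133, 1084, 1129 and 1221 CPM in the prt6-1-labelled libraries, and at 1187, 1209, 1300 and 1254 CPM in Col-0. The lowest prt6-1erfvii library was above every other, and the log2 fold change was -0.61 ± 0.06 (adjusted p = 2.22e-07, edgeR's quasi-likelihood test).

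GLDP2 (AT2G26080, chromosome 2, 11109003-11114291, - strand) is 1 of 2 genes for the P protein of glycine decarboxylase, the subunit that decarboxylates glycine in the mitochondrion. It was at 1045, 999, 1011 and 1070 CPM in prt6-1erfvii. It was at 730, 694, 788 and 634 CPM in the prt6-1-labelled libraries, and at 694, 708, 719 and 701 CPM in Col-0. The gap between prt6-1erfvii and the rest was wider than the range within any genotype, and the log2 fold change was -0.55 ± 0.07 (adjusted p = 4.25e-06, edgeR's quasi-likelihood test). GLDP1 (AT4G33010, chromosome 4, 15926652-15931422, - strand), the other P protein gene, was chosen for a closer account after its values were seen. It ranged from 1692 to 1802 CPM in prt6-1erfvii, from 1485 to 1941 CPM in the prt6-1-labelled libraries and from 1692 to 1809 CPM in Col-0, so that the genotypes overlapped throughout. Its log2 fold change was -0.0059 with a 95% interval from -0.14 to 0.13, where that of GLDP2 ran from -0.68 to -0.42, and its sign turned with the scaling (0.074 with library size alone). GLDP1 overlaps AT4G33000 on the opposite strand, as GOX1 does AT3G14430, and RCA, PGK1, HCEF1, RPI3 and PRK also overlap a gene on the other strand. How the counting treated strand is not given in the sources used here, so reads of these genes and of their neighbours may not have been told apart.

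GGT1 (AT1G23310), the glutamate:glyoxylate aminotransferase that makes glycine in the peroxisome, ranged from 2481 to 2745 CPM in prt6-1erfvii. It ranged from 1859 to 1968 CPM in the prt6-1-labelled libraries, below all of these, with a log2 fold change of -0.45 ± 0.05 (adjusted p = 4.72e-06, edgeR's quasi-likelihood test). GOX2 (AT3G14415) and GOX1 (AT3G14420), neighbours on chromosome 3, encode the glycolate oxidases that turn glycolate into glyoxylate. GOX2 ranged from 799 to 858 CPM in prt6-1erfvii and from 622 to 772 CPM in the prt6-1-labelled libraries, with no overlap and a log2 fold change of -0.32 ± 0.07 (adjusted p = 0.00119). GOX1 ranged from 1240 to 1338 CPM and from 1119 to 1318 CPM, which overlapped, and its log2 fold change of -0.14 (95% interval from -0.26 to -0.02) had an adjusted p of 0.0975 in edgeR's quasi-likelihood test and was not called. Without replicate 4 of the prt6-1-labelled libraries, the one at 1318 CPM, it was called at -0.20 (adjusted p = 0.00602, edgeR). GOX2 and GOX1 lie 79 kb and 82.1 kb from RAP2.2, 1 of the mutated genes, and the part of that position was not tested.

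The 5 remaining photorespiration genes were not called either. These were GDCH and GLDT, for the H and T proteins of glycine decarboxylase, SHM1, the mitochondrial serine hydroxymethyltransferase that uses the methylene group released from glycine, HPR1, the peroxisomal hydroxypyruvate reductase, and GLDP1. SHM1 ranged from 2174 to 2276 CPM in the prt6-1-labelled libraries and from 2281 to 2345 CPM in prt6-1erfvii, without overlap, at an adjusted p of 0.309 in edgeR's test. HPR1, which acts between AGT1 and GLYK, ranged from 750 to 893 CPM and from 801 to 895 CPM, respectively. GDCH ranged from 462 to 524 CPM and from 434 to 488 CPM, and GLDT from 1312 to 1535 CPM and from 1384 to 1429.7 CPM, both with overlap.

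**Figure D2:**
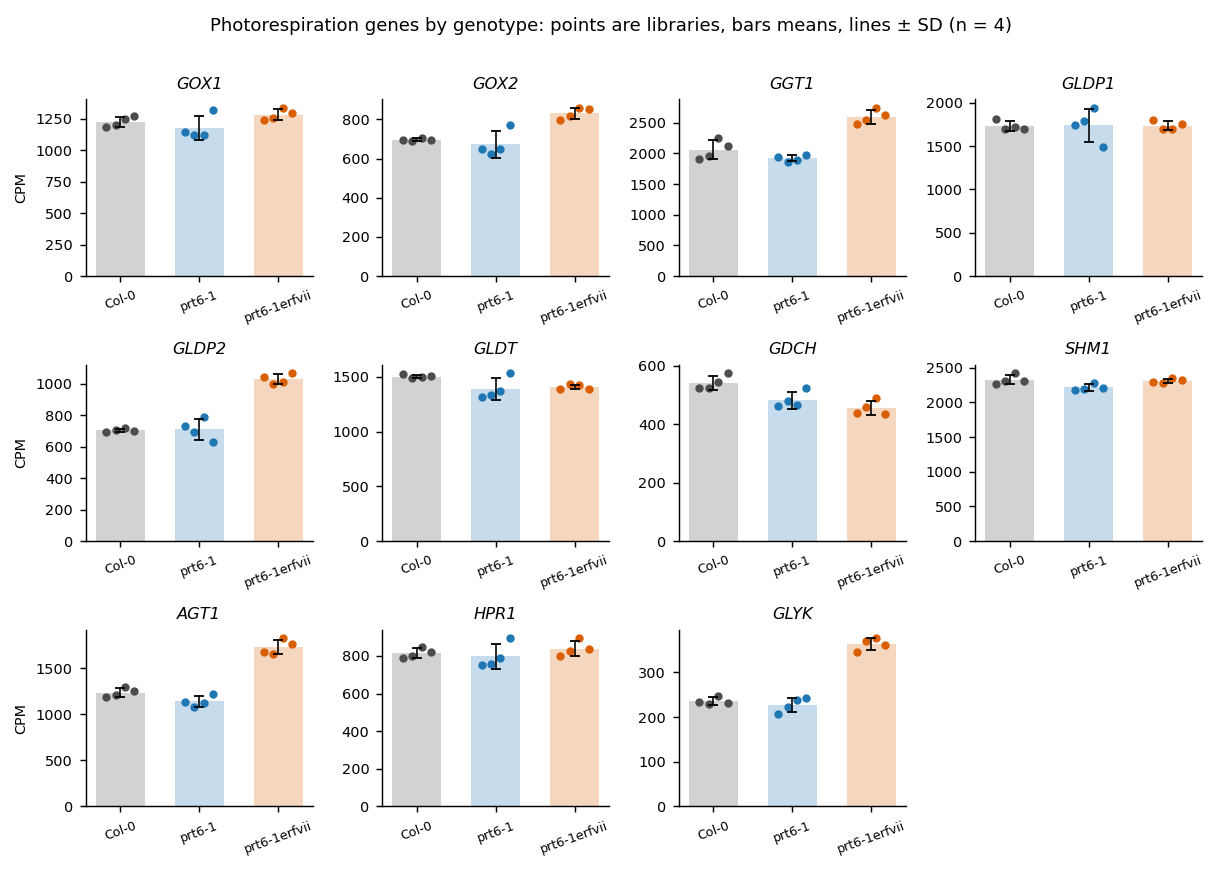
CPM of the 11 photorespiration genes tested, by genotype, with points for libraries, bars for means and lines for ± SD (n = 4). GOX2, GGT1, GLDP2, AGT1 and GLYK are higher in prt6-1erfvii, without overlap, while GLDP1 lies between 1485 and 1941 CPM in all libraries.

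Scaled to the length of the transcripts, the order of the photorespiration genes by level differed between genotypes. In CPM per kb of exon, SHM1 had the highest level in Col-0 (1170.0 ± 33.7, SD, n = 4), followed by GGT1 (934 ± 69.7), GLDT (699.8 ± 6.97), GOX1 (649 ± 21.2), AGT1 (594 ± 24.1) and GDCH (574 ± 25.9). AGT1 and GDCH did not differ beyond their spread. In prt6-1erfvii GGT1 (1179.8 ± 51.2) and SHM1 (1162 ± 13.9) were within their spread of each other, and AGT1 (832 ± 37.5) was above GOX1 (678 ± 22.8) and GLDT (655 ± 10.4). GLYK had the lowest level of the 11 in CPM per kb in Col-0 (86.9 ± 3.09), in the prt6-1-labelled libraries (83.8 ± 6.10) and in prt6-1erfvii (134 ± 4.94), and GLDP2 the next lowest in each (178 ± 2.63, 179 ± 16.4 and 260 ± 8.14).

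Of the 23 Calvin cycle genes, 10 were called in this comparison, with 8 lower and 2 higher in the prt6-1-labelled libraries. The shares over all genes were the 16.6% and 14.7% given above. The differences were small for most: the median log2 fold change was -0.06, against -0.00088 over all genes tested, and 18 of the 23 were below 0. In 9 of the 23 the libraries did not overlap, beside 31.2% of all genes. The called genes furthest from 0 were CP12-3, RBCS1B and RPE, which were lower, and TKL2, which was higher in the prt6-1-labelled libraries. Leaving out 1 library moved the count of 10 to between 6 and 13: it was 6 without replicate 1, 2 or 3 of the prt6-1-labelled libraries or without replicate 2, 3 or 4 of prt6-1erfvii, and 13 without replicate 4 of the prt6-1-labelled libraries. With upper-quartile factors it was also 6, with 2 higher and 4 lower. The median over all genes moved by 0.06 with these factors and by 0.08 with library size alone, so the median of -0.06 over the cycle was no larger than the effect of the scaling.

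The 4 small subunit genes of Rubisco did not move together. RBCS1A (AT1G67090) was at 13447, 13358, 13743 and 15657 CPM in the prt6-1-labelled libraries, at 14313, 15273, 16222 and 14797 CPM in prt6-1erfvii and at 14275, 15241, 14242 and 14960 CPM in Col-0. Replicate 4 of the prt6-1-labelled libraries was well above its replicates, and the genotypes overlapped. Its log2 fold change was -0.12, with a 95% interval from -0.24 to 0.0023 and an adjusted p of 0.159 (edgeR), and it was called at -0.17 (adjusted p = 0.0197, edgeR) without that replicate. RBCS1B (AT5G38430, chromosome 5, 15383167-15385320, - strand) was at 977, 972, 1046 and 1030 CPM in the prt6-1-labelled libraries, at 1188, 1394, 1438 and 1187 CPM in prt6-1erfvii and at 1184, 1109, 1118 and 1130 CPM in Col-0. The prt6-1-labelled libraries were below all others, and the log2 fold change was -0.38 ± 0.07 (adjusted p = 0.000282, edgeR).

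RBCS3B (AT5G38410) was at 3906, 3740, 3903 and 4024 CPM in the prt6-1-labelled libraries, at 4015, 4526, 4662 and 4141 CPM in prt6-1erfvii and at 4417, 4533, 4474 and 4715 CPM in Col-0. Its fold change of -0.17 ± 0.06 on the log2 scale was called (adjusted p = 0.0403, edgeR) although the highest library labelled prt6-1 was just above the lowest of prt6-1erfvii. RBCS2B (AT5G38420) was at 2511, 2401, 2603 and 2979 CPM in the prt6-1-labelled libraries, at 2439, 2475, 2733 and 2336 CPM in prt6-1erfvii and at 2805, 2626, 2739 and 2853 CPM in Col-0, and was not called. As these 3 genes have stretches as long as a read that are repeated, some of their reads may not have been counted, and their separate values are less certain than that of RBCS1A. RCA (AT2G39730), Rubisco activase, which frees Rubisco of bound sugar phosphates, was at 8331, 7948, 8445 and 9380 CPM in the prt6-1-labelled libraries, at 8199, 8928, 9010 and 8652 CPM in prt6-1erfvii and at 8782, 9286, 9322 and 9407 CPM in Col-0. The genotypes overlapped, and the log2 fold change was -0.04 with a 95% interval from -0.16 to 0.08.

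TKL2 and CP12-3, the Calvin cycle genes furthest from 0 in both comparisons with prt6-1erfvii, were also those with the lowest levels in the cycle in CPM per kb (9.74 ± 1.86 for CP12-3 and 13.1 ± 0.623 for TKL2 in Col-0, against 11577 ± 394 for RBCS1A). TKL2 (AT2G45290, chromosome 2, 18672497-18676484, + strand), the minor copy of transketolase, which moves 2-carbon units between sugars, was at 50.3, 50.9, 48.7 and 46.8 CPM in the prt6-1-labelled libraries. It was at 36.1, 30.3, 28.8 and 30.9 CPM in prt6-1erfvii and at 43.6, 45.0, 41.5 and 46.4 CPM in Col-0. All prt6-1erfvii libraries were below all others, and the log2 fold change was 0.63 ± 0.08 (adjusted p = 4.39e-06, edgeR). TKL1, the major copy, ranged from 2068 to 2270 CPM in the prt6-1-labelled libraries and from 2137 to 2333 CPM in prt6-1erfvii. CP12-3 (AT1G76560, chromosome 1, 28728206-28728976, + strand) belongs to the CP12 proteins, which bind glyceraldehyde phosphate dehydrogenase and phosphoribulokinase in the dark and hold them inactive.

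CP12-3 was at 10.6, 12.9, 13.7 and 13.03 CPM in prt6-1erfvii. It was at 7.76, 7.27, 6.57 and 8.25 CPM in the prt6-1-labelled libraries and at 7.19, 6.70, 9.62 and 6.53 CPM in Col-0. The prt6-1erfvii libraries were above all others, and the log2 fold change was -0.76 ± 0.11 (adjusted p = 4.43e-05, edgeR). In CPM per kb it had 16.3 ± 1.77 in prt6-1erfvii, where CP12-1 had 762 ± 80.4 and CP12-2 452 ± 54.6, so that CP12-3 was a small part of the CP12 transcripts in each genotype. CP12-1 was called as lower at -0.24 ± 0.08 (adjusted p = 0.0433, edgeR). It lies 55.1 kb from HRE2, 1 of the mutated genes, and the part of that position was not tested. TKL2 lies 826 kb from HRE2 and PGK2 891 kb from RAP2.12, and the part of these positions was not tested either. PGK1, which was not called, lies 674 kb from RAP2.2.

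The other calls were of enzymes of the reduction and regeneration steps. PGK2 (AT1G56190), the minor plastid phosphoglycerate kinase, was at 306, 301, 324 and 318 CPM in the prt6-1-labelled libraries and at 279, 287, 275 and 276 CPM in prt6-1erfvii, which did not overlap (log2 fold change 0.15 ± 0.05, adjusted p = 0.0436, edgeR). GAPA1 and GAPA2, for the A subunit of plastid glyceraldehyde phosphate dehydrogenase, had log2 fold changes of -0.15 and -0.23, FBA2, plastid aldolase, of -0.20, and RPE, which makes ribulose phosphate from xylulose phosphate, of -0.31 (adjusted p from 0.000925 to 0.0366, edgeR). The libraries of the 2 genotypes did not overlap in these 4 genes. PGK1, GAPB, TIM, FBA1, HCEF1, SBPASE, TKL1, RPI3, PRK and CP12-2 were not called, which covers both bisphosphatases and phosphoribulokinase, the enzyme that makes the CO2 acceptor.

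**Figure D3:**
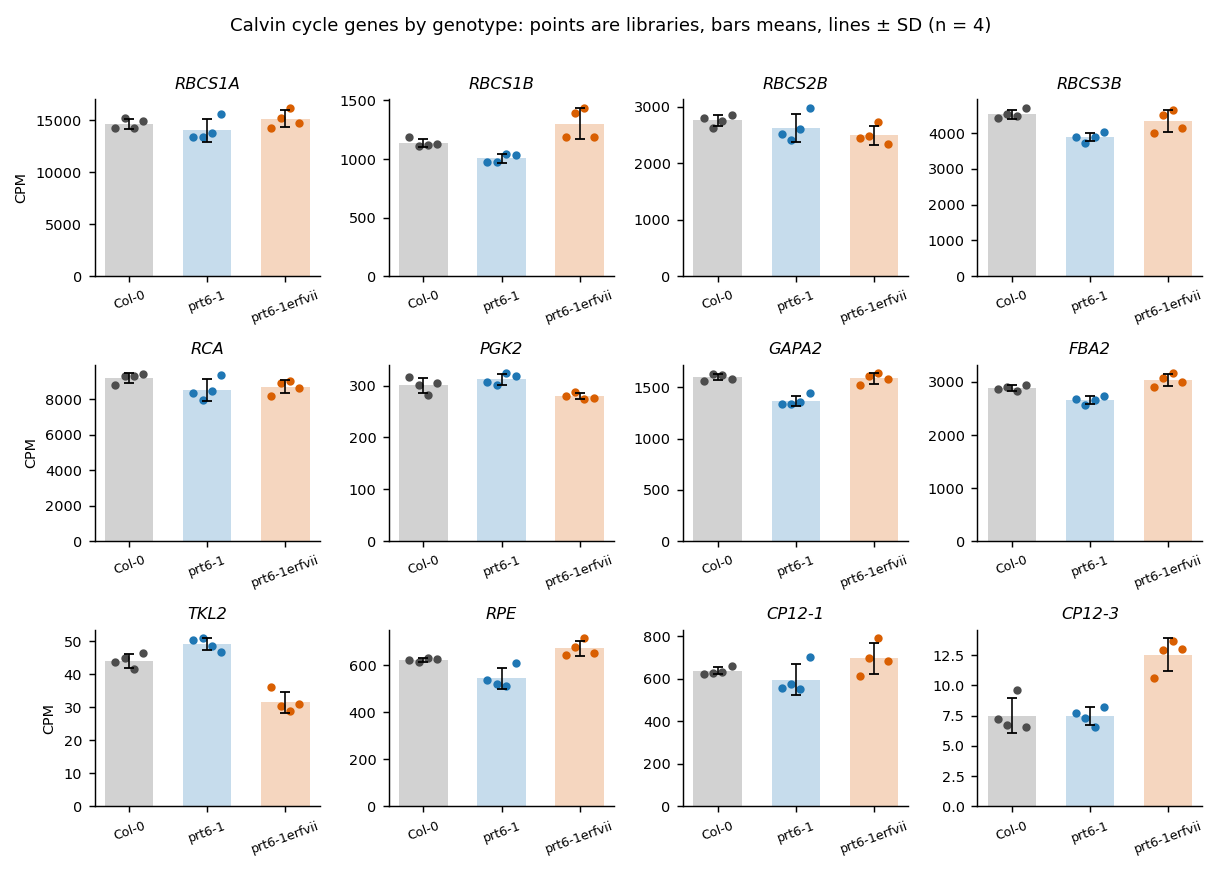
CPM of 12 Calvin cycle genes, by genotype, with points for libraries, bars for means and lines for ± SD (n = 4). TKL2 is lower and CP12-3 higher in prt6-1erfvii without overlap, while RBCS1A and RCA overlap between genotypes.

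The second comparison, of Col-0 with prt6-1erfvii, sets the same prt6-1erfvii libraries against the wild type. The 5 photorespiration genes named above were again lower in the first genotype, Col-0, and GDCH was higher, so that 6 of 11 were called. Over all 20747 genes tested, 37.2% were called, 18.7% as higher and 18.5% as lower in Col-0. The log2 fold changes (Col-0 minus prt6-1erfvii) were -0.63 ± 0.05 for GLYK, -0.55 ± 0.05 for GLDP2, -0.49 ± 0.05 for AGT1, -0.34 ± 0.06 for GGT1 and -0.25 ± 0.05 for GOX2 (adjusted p from 9.74e-10 to 0.000205, edgeR). All 5 had Col-0 libraries below all prt6-1erfvii libraries. The median of the 11 was -0.06, against 0.0090 over all genes tested, and the libraries did not overlap in 7 of them, against 34.8% of all genes.

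GDCH (AT2G35370, chromosome 2, 14891041-14892298, + strand), the H protein that carries the aminomethyl group of glycine, went the other way from GLDP2 of the same complex. It was at 522, 525, 545 and 575 CPM in Col-0 and at 439, 457, 488 and 434 CPM in prt6-1erfvii. The prt6-1-labelled libraries, at 462, 478, 464 and 524 CPM, lay between and overlapped with both. The log2 fold change from prt6-1erfvii to Col-0 was 0.25 ± 0.05 (adjusted p = 0.000566, edgeR).

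Among the Calvin cycle genes, 6 of 23 were called against prt6-1erfvii, with 4 higher and 2 lower in Col-0, a smaller share than the 37.2% of all genes called (18.7% higher and 18.5% lower), and the median was 0.01. CP12-3 (-0.74 ± 0.12, adjusted p = 5.00e-05) and RBCS1B (-0.20 ± 0.06, adjusted p = 0.0138) were lower in Col-0, and TKL2 (0.48 ± 0.07, adjusted p = 4.94e-06) was higher, all by edgeR. The other 3 were HCEF1, the plastid fructose bisphosphatase (0.16 ± 0.05), RBCS2B (0.14 ± 0.05) and TIM, plastid triose phosphate isomerase (0.14 ± 0.05), each higher in Col-0 (adjusted p from 0.0101 to 0.0433, edgeR). The libraries did not overlap in 8 of the 23, the same share as the 34.8% of all genes. GAPA1, GAPA2, FBA2 and RPE, lower in the prt6-1-labelled libraries than in prt6-1erfvii, were not called between Col-0 and prt6-1erfvii. Their Col-0 means of 2125, 1597, 2883 and 623 CPM stood beside 2179.5, 1587, 3035 and 673 CPM in prt6-1erfvii. Without 1 library the count of 6 ranged from 4 to 7.

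The third comparison, of the prt6-1-labelled libraries with Col-0, asks what the prt6-1 mutation changes where the ERFVII genes are intact. Of the Calvin cycle genes 2 of 23 were lower and 0 higher in the prt6-1-labelled libraries, and of the 11 photorespiration genes 0 were called by edgeR, with 2 at an unadjusted p under 0.05 and 0 called by DESeq2. Over all 20899 genes tested, 2.18% were called, 1.09% as higher and 1.09% as lower. The 2 genes were RBCS3B (-0.22 ± 0.05, adjusted p = 0.0143, edgeR), with the values given above, and GAPA2 (AT1G12900, chromosome 1, 4392438-4394454, - strand). GAPA2 was at 1334, 1337, 1357 and 1440 CPM in the prt6-1-labelled libraries and at 1560, 1625, 1622 and 1581 CPM in Col-0. These did not overlap, and the log2 fold change was -0.22 ± 0.05 (adjusted p = 0.0163, edgeR).

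The log2 fold change was below 0 for 20 of 23 Calvin cycle genes, with a median of -0.08, and for 9 of 11 photorespiration genes, with a median of -0.06, against 0.0022 over all genes tested. The median over all genes moved by 0.05 with library size alone. The libraries did not overlap in 9 of the 23, against 7.76% of all genes, and in 0 of the 11. The count of 2 depended on single libraries: it was 0 without replicate 2 of the prt6-1-labelled libraries or without Col-0 replicate 4, 1 without replicate 1 of the prt6-1-labelled libraries or without Col-0 replicate 2, and 6 without replicate 4 of the prt6-1-labelled libraries, where the calls over all genes also went from 455 to 1231. Without that last library 2 photorespiration genes, GDCH and GLDT, were also called as lower.

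**Figure D4:**
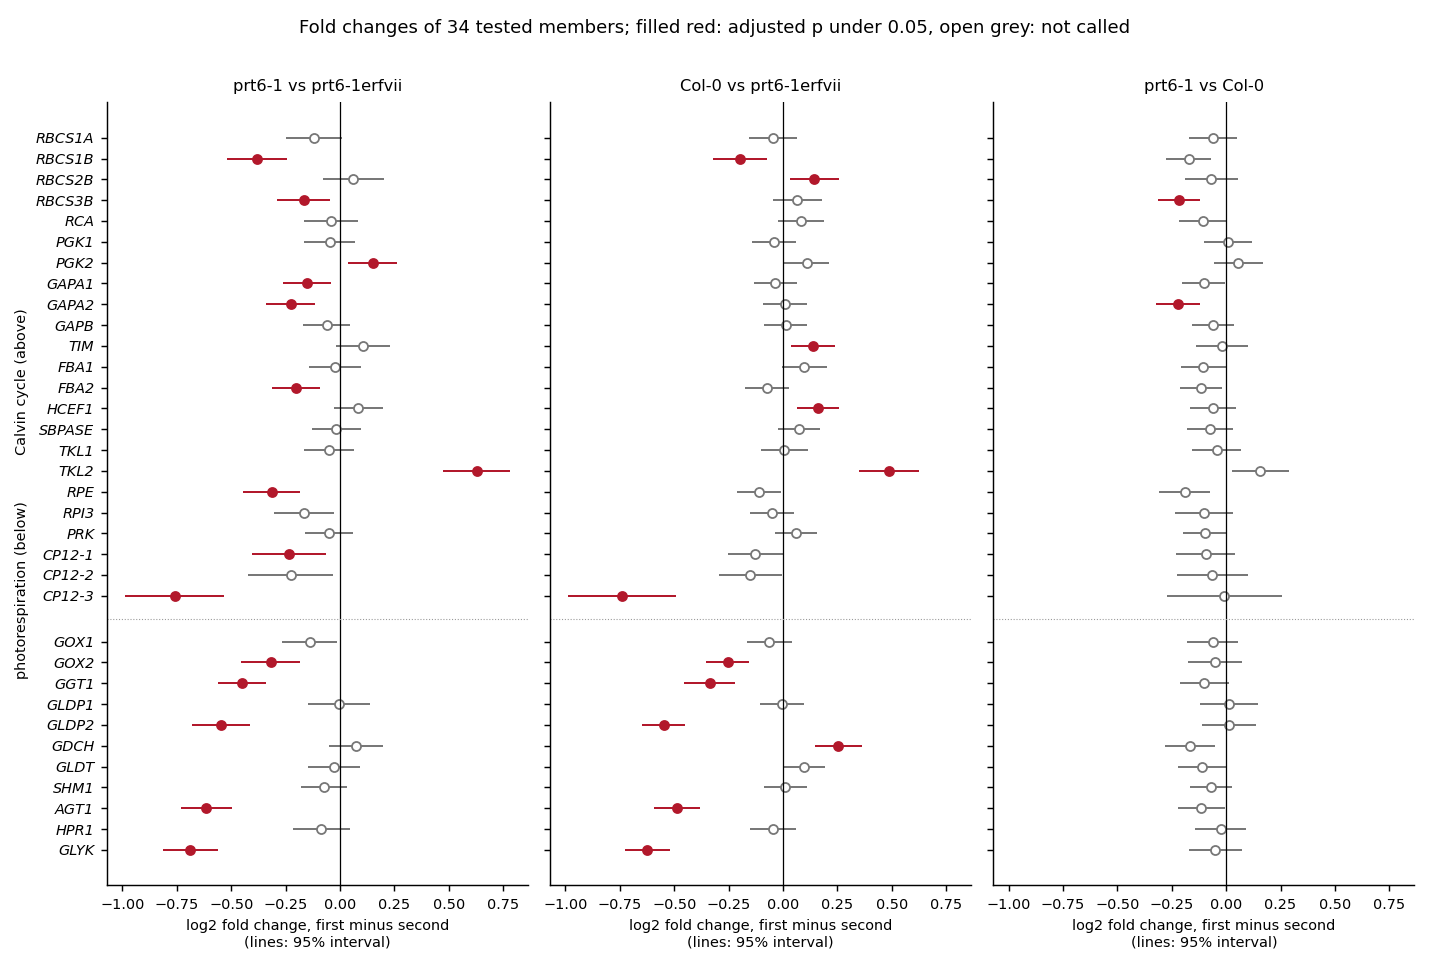
Log2 fold changes, first genotype minus second, with 95% intervals, of the 23 Calvin cycle and 11 photorespiration genes tested in the 3 comparisons, filled where the adjusted p was under 0.05. GLYK, AGT1, GLDP2, GGT1 and GOX2 lie to the left in both comparisons with prt6-1erfvii, while the Calvin cycle genes run from -0.76 (CP12-3) to 0.63 (TKL2) against prt6-1erfvii and from -0.22 to 0.16 against Col-0.

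The balance between copies of the same enzyme was compared as a share within each library, which does not depend on how libraries are scaled. GLDP1 held 65.6%, 65.2%, 64.9% and 64.4% of the GLDP1 and GLDP2 transcripts, in CPM per kb, in prt6-1erfvii. It held 72.6%, 74.1%, 73.1% and 72.2% in the prt6-1-labelled libraries, and 74.2%, 72.6%, 72.6% and 72.8% in Col-0. The 8.01 points between Col-0 and prt6-1erfvii, and the 7.95 points between the prt6-1-labelled libraries and prt6-1erfvii, were larger than the SDs within genotypes of 0.495 to 0.821 points. GOX1 held 58.5 ± 0.261% (SD, n = 4) of the GOX1 and GOX2 transcripts in prt6-1erfvii, against 61.7 ± 0.689% in Col-0 and 61.5 ± 0.569% in the prt6-1-labelled libraries, again without overlap.

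In the Calvin cycle FBA1 held 26.5 ± 0.296% of the FBA1 and FBA2 transcripts in prt6-1erfvii, below its 28.9 ± 0.424% in Col-0 and 29.03 ± 0.501% in the prt6-1-labelled libraries. Further genes of the same enzymes, such as FBA3 and GOX3, were not part of these shares. TKL1 held 98.7 ± 0.0807% of the TKL1 and TKL2 transcripts in prt6-1erfvii, above 98.1 ± 0.160% and 97.9 ± 0.110%, and PGK1 held 86.4 ± 0.389% of the PGK1 and PGK2 transcripts, above 85.2 ± 0.407% and 84.7 ± 0.674%. CP12-3 held 1.33 ± 0.101% of the CP12 transcripts, above 0.872 ± 0.151% and 0.925 ± 0.0912%. RBCS1A held between 63.1% and 65.0% of the small subunit transcripts on average. GAPA1, at 57.2 ± 0.272% of GAPA transcripts in the prt6-1-labelled libraries, was above the 55.1 ± 0.500% of Col-0 with no overlap.

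Of the 10 shares compared, 6 did not overlap between the prt6-1-labelled libraries and prt6-1erfvii, 7 between Col-0 and prt6-1erfvii and 1 between the prt6-1-labelled libraries and Col-0. The levels of single genes did not overlap in 31.2%, 34.8% and 7.76% of all genes tested, and shares of other gene pairs were not computed. The shares of CP12-1, CP12-2 and CP12-3 are parts of the same family and not separate results. RBCS1A was among the 7, by a narrow gap (up to 64.5% in Col-0 and from 64.6% in prt6-1erfvii). Each share without overlap had a two-sided exact permutation p of 0.0286, the smallest that 4 libraries against 4 allow. Adjusted over the 30 tests this is 0.0612, so that no share passed 0.05 after adjustment. As no p can be smaller than 0.0286 here, a share could not pass by the size of its own difference. No conclusion is therefore drawn from this adjustment.

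**Figure D5:**
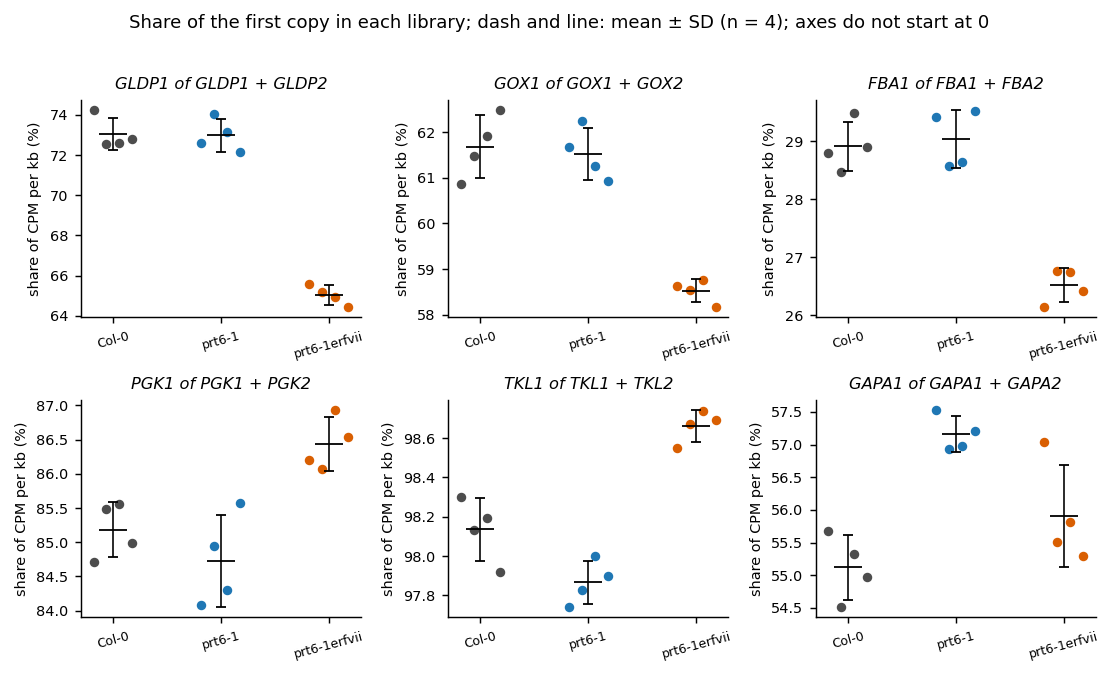
Share (%) of the first copy in the CPM per kb of a pair of genes, by genotype, with points for libraries and dashes and lines for mean ± SD (n = 4), on axes that do not start at 0. GLDP1 lies between 64.4% and 65.6% in prt6-1erfvii and between 72.2% and 74.2% in the other libraries, and GOX1 and FBA1 also lie below there.

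Other genes of the 2 pathways, which are not members, are given by list. The 24 other photorespiration genes include further copies of the enzymes, transporters and the enzymes that refix ammonium. Of these, 8 were higher and 5 lower in the prt6-1-labelled libraries than in prt6-1erfvii, beside 14.7% and 16.6% of all genes. Of those called, the 3 furthest from 0 were GOX3, a further gene of the glycolate oxidase family (0.66), HPR3, a hydroxypyruvate reductase (0.53), and BASS6, a glycolate transporter (0.49), all higher in the prt6-1-labelled libraries. The 5 that were lower, and so higher in prt6-1erfvii like the 5 members, were CAT2, the leaf catalase that removes the peroxide of glycolate oxidase (-0.36), DIT2.1 and DIT1, plastid dicarboxylate transporters (-0.31 and -0.22), GLN2, plastid glutamine synthetase (-0.28), and GDH3, an H protein of glycine decarboxylase (-0.17). Between Col-0 and prt6-1erfvii 9 were higher and 3 lower, beside 18.7% and 18.5% of all genes. Between the prt6-1-labelled libraries and Col-0 0 were called by edgeR, beside 2.18% of all genes, with 4 of the 24 at an unadjusted p under 0.05. The median over the 24 was 0.09, 0.12 and -0.04 in the 3 comparisons, against -0.00088, 0.0090 and 0.0022 over all genes.

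The 13 other isoforms of Calvin cycle steps include cytosolic and plastid enzymes of glycolysis. Of these, 6 were higher and 0 lower in the prt6-1-labelled libraries than in prt6-1erfvii, beside 14.7% and 16.6% of all genes. The 6 were led by GAPCP1 (0.57) and GAPCP2 (0.40), plastid glyceraldehyde phosphate dehydrogenases of glycolysis, and FBA3, another plastid aldolase (0.35). With Col-0 as the first genotype 7 were higher and 1, RPI1, was lower (-0.20), beside 18.7% and 18.5% of all genes. GAPCP1, GAPCP2 and FBA3 were at 0.46, 0.33 and 0.28. Between the prt6-1-labelled libraries and Col-0 edgeR called 0 of them, and 0 had an unadjusted p under 0.05. The medians over the 13 were 0.11, 0.19 and 0.02, against -0.00088, 0.0090 and 0.0022 over all genes. Beside the 16.6% lower and 14.7% higher of all genes, 7 of the 16 genes for Rubisco assembly and regulation of the cycle were lower in the prt6-1-labelled libraries than in prt6-1erfvii and 1 was higher. Those furthest from 0 were the Rubisco assembly chaperones RBCX1 (-0.57) and RBCX2 (-0.40) and the carbonic anhydrase CA2 (-0.43), and the 1 that was higher was TRXF1, a thioredoxin that activates cycle enzymes in the light (0.21). Between Col-0 and prt6-1erfvii 6 were lower and 3 higher in Col-0, beside 18.5% and 18.7% of all genes. Among the 6 were RBCX1 (-0.32) and RAF2 (-0.28), another assembly factor. The 3 that were higher in Col-0 were TRXF1 (0.36), TPT, the triose phosphate translocator (0.23), and TRXF2 (0.18). Between the prt6-1-labelled libraries and Col-0 only TRXF2 of the 16 was called (-0.31, adjusted p = 0.00614, edgeR), beside 2.18% of all genes. The medians over the 16 were -0.15, -0.08 and -0.12, against the same medians over all genes.

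Whole seedlings mix organs, and in such bulk samples fewer cells of a type and less RNA per cell cannot be told apart. Of 13 root markers, 6 were higher and 2 lower in the prt6-1-labelled libraries than in prt6-1erfvii, beside 14.7% and 16.6% of all genes. The root hair genes PRP3 (1.84), LRX1 (1.58) and COBL9 (1.12) were furthest above 0, and the 2 below were PYK10 (-0.26) and TIP2;3 (-0.57). The summed root markers without PYK10, which held most of the sum, ranged from 110.4 to 142 CPM in the prt6-1-labelled libraries, from 100.2 to 119.9 CPM in Col-0 and from 82.1 to 95.3 CPM in prt6-1erfvii. With PYK10 the order turned, from 4586 to 5080, from 4393 to 5044 and from 5225 to 5994 CPM. Of 10 shoot markers that are not photosynthesis genes, 4 were lower (MYB60, -0.43, FIL, -0.37, YAB3, -0.32, and TMM, -0.32) and 2 higher (KAT1, 0.61, and AS1, 0.32) in the prt6-1-labelled libraries than in prt6-1erfvii. Over all genes 16.6% were lower and 14.7% higher. Shoot marker sums were 191 to 219 CPM in the prt6-1-labelled libraries and 211 to 219.6 CPM in prt6-1erfvii.

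Between Col-0 and prt6-1erfvii 5 root markers were higher and 3 lower in Col-0 (TIP2;3, -0.80, MYB36, -0.58, and PYK10, -0.26), and 2 shoot markers were higher (KAT1, 0.75, and AS1, 0.38), with shoot marker sums of 219.6 to 237 CPM in Col-0. Over all genes 18.7% were higher and 18.5% lower in Col-0. Between the prt6-1-labelled libraries and Col-0 0 root and 0 shoot markers were called by edgeR, with 4 of each at an unadjusted p under 0.05, 11 of 13 root markers above 0 and 10 of 10 shoot markers below 0. Among 9 markers of seeds and of the use of reserves, ICL, the isocitrate lyase of the glyoxylate cycle, was at 18.4 ± 14.3 CPM in Col-0, 158 ± 19.4 CPM in the prt6-1-labelled libraries and 79.6 ± 17.03 CPM in prt6-1erfvii. ICL was called in both comparisons with prt6-1erfvii (0.98 for the prt6-1-labelled libraries and -2.12 for Col-0), and not between the prt6-1-labelled libraries and Col-0. That last difference, between means of 158 and 18.4 CPM, was nevertheless the largest of the 3, and the SD of 14.3 CPM in Col-0 was close to its mean. The missing call is thus no sign that the levels were alike. PCK1, a phosphoenolpyruvate carboxykinase of gluconeogenesis, was higher in the prt6-1-labelled libraries than in prt6-1erfvii (0.23) and than in Col-0 (0.28). No marker of these 3 lists was without counts in a whole genotype, and 3 of 13 root markers (WOX5, PLT1 and SMB) had means under 1 CPM in prt6-1erfvii. These marker values moved with the genotypes beside the members, and their part in the members' differences was not tested. The medians over the root markers were 0.19, 0.15 and 0.21 in the 3 comparisons, and over the shoot markers -0.24, -0.08 and -0.15. Over all genes they were -0.00088, 0.0090 and 0.0022. The summed seed and reserve markers ranged from 265 to 339 CPM in Col-0, from 478 to 513 CPM in the prt6-1-labelled libraries and from 325 to 448 CPM in prt6-1erfvii.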

How the data were processed

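The data were deposited raw counts per gene from poly(A) RNA of whole seedlings, 4 libraries for each of 3 genotypes. According to their methods, the authors sequenced pairs of 75-base reads from a directional library, trimmed them, aligned them to TAIR10 with HISAT2 2.1.0 and counted uniquely mapped reads with featureCounts 1.6.0, so genes with identical copies lose reads. The strand setting of the counting is not given in the sources used here. Each library held from 23156637 to 30582461 counts on genes, and all 12 columns of the table were used.

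For every comparison only the 8 libraries concerned entered the fit in edgeR 4.0.16 (filterByExpr, TMM, robust quasi-likelihood F test, R 4.3.3) and p-values were adjusted by Benjamini-Hochberg over all genes tested, with calls at an adjusted p under 0.05. Fold changes are on the log2 scale, first genotype minus second. CPM are counts over effective library sizes, and CPM per kb divides by the exon union of RefSeq's TAIR10.1, whose nuclear chromosomes are those of TAIR10. Shares of copies were compared by two-sided exact permutation tests. Scripts were tested on simulated data. Alternatives were DESeq2 1.42.0, other scalings, filters, thresholds and sample sets.

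All 35 genes were accounted for. Values by library were given for the RBCS genes and RCA, for the 3 called genes of each pathway and comparison furthest from 0 and for called genes going against most of their pathway. From the other lists at most 3 called genes were named by size, and further genes where a count was 5 or fewer, which were chosen after their values were seen. The members and lists were chosen with earlier results of these data known. With no file of protein sequences, none are shown. Promoter windows were read from the genome with Biopython 1.88.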

Additional observations from a re-analysis of the deposited data

Results flagged for a closer look

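In 6 of 150 groups of 4 libraries looked at, 1 library lay far from the other 3, by a gap that chance gives in about 1 in 20 groups. The groups are drawn from the same 12 libraries and are not independent, so the number of 6 was not weighed against chance. Replicate 4 of the prt6-1-labelled libraries, which also stood apart over all genes, accounted for 4 of the 6. It was highest for RBCS1A, the main Rubisco small subunit gene, at 15657 CPM where the other 3 were between 13358 and 13743 CPM. It was also highest for GOX1, a glycolate oxidase, at 1318 CPM against 1119 to 1142 CPM. CP12-1, a regulator of the cycle, was at 702 CPM in it and between 552 and 576 CPM in the others. TIM, triose phosphate isomerase, was at 572 CPM against 491 CPM in each of the others. In Col-0 the share of RBCS1A in the small subunit transcripts was 64.5% in replicate 2, against 62.5% to 62.8%. The share of GLDP1 in the P protein transcripts was 74.2% in Col-0 replicate 1, against 72.6% to 72.8%, which lay far from the 64.4% to 65.6% of prt6-1erfvii.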

How the results depend on the processing

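None of the 29 called fold changes of members reversed under any of 16 alternatives per comparison, and 10 lost the call under at least 1: RBCS3B, PGK2, GAPA1, FBA2 and CP12-1 between the prt6-1-labelled libraries and prt6-1erfvii, RBCS1B, RBCS2B and TIM between Col-0 and prt6-1erfvii, and RBCS3B and GAPA2 between the prt6-1-labelled libraries and Col-0. GLYK, AGT1, GLDP2, GGT1 and GOX2 stayed called against prt6-1erfvii in all of them. Of 73 fold changes not called, 26 changed sign under some alternative and 21 were called under one. Between the prt6-1-labelled libraries and prt6-1erfvii RCA turned to 0.039 with library size only and 0.021 with upper-quartile factors. GLDP1 turned to 0.074 and 0.053 with the same, to 0.0027 with no filter and to 0.0054 in a fit over 12 libraries, and ran from -0.063 to 0.065 without 1 library. The cause was not tested.

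Called Calvin cycle genes numbered 10 between the prt6-1-labelled libraries and prt6-1erfvii, 6 with upper-quartile factors, 6 at an adjusted p under 0.01 and 6 to 13 without 1 library. Between Col-0 and prt6-1erfvii they numbered 6, 2 at an adjusted p under 0.01 and 4 to 7 without 1 library. Between the prt6-1-labelled libraries and Col-0 they numbered 2, 4 with DESeq2, 0 at an adjusted p under 0.01, 4 at one under 0.1 and 0 to 6 without 1 library, where replicate 4 of the prt6-1-labelled libraries gave the 6. Called photorespiration genes ranged without 1 library from 5 to 6, from 6 to 6 and from 0 to 2 in the same order, the 2 again without that replicate. Shares of copies without overlap ranged from 6 to 7, from 7 to 7 and from 1 to 2, the 2 without replicate 3 of the prt6-1-labelled libraries or Col-0 replicate 2, 3 or 4. Fewer libraries per fit are part of these settings.

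With the replicate number as a block, 7, 9 and 2 Calvin cycle genes and 5, 6 and 0 photorespiration genes were called, and 5721, 8406 and 540 of all genes. Deviations of libraries with the same number correlated between -0.08 and 0.16, so the numbers were not taken to pair the libraries. Depth limited CP12-3, with 165 to 390 counts per library, and PGLP1, with 3 to 12.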
